A study of Mus musculus with 8 samples.

Results

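Macrophages of the mouse mammary gland were compared between MMTV-iFGFR1 transgenic mice and their non-transgenic littermates, taking the 2 times of treatment together: 4 transgenic pools against 4 control pools, with time as a covariate. Of 13083 genes measured, 736 had both transgenic pools on the same side of both control pools at 48 hours and again at 4 weeks, 376 of them with the higher signal in the transgenic pools and 360 with the lower. These genes were picked by their own signals, so their differences are descriptions. No gene differed between the genotypes over both times at a Benjamini-Hochberg adjusted p under 0.05 (limma), and nearly as many genes, 717, lay on opposite sides at the 2 times.

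All 8 arrays were used, 2 for each combination of genotype and time. Every mouse was an FVB female of 6 weeks at the start, and both genotypes received the dimerizer, so the groups differ by the transgene, and no group without dimerizer was analysed here. In the transgenic mice the MMTV promoter, active in mammary epithelium, drives iFGFR1, an FGF receptor 1 that signals when the dimerizer joins its copies, for 48 hours or for 4 weeks. The macrophages themselves are therefore not the cells meant to carry the receptor. Cells positive for Cd11b were sorted from glands digested with collagenase, and each array holds the pooled cells of 3 mice. The sample titled MMTV-iFGFR1 4 weeks pool 2 is called transgenic by its title, source and genotype, while its description names non-transgenic mice, and it was used as transgenic. With 2 pools a group, p-values rest on the spread between these pools, steadied by the spread over all genes. In the fit over both times the spread also holds any difference between the genotype differences at the 2 times.

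Mammary macrophages surround the epithelial ducts, take up dying cells and debris, and feed growth factors, proteases and chemokines to the epithelium and the vessels. FGF receptors act through the Ras and ERK pathway, whose feedback genes include Sprouty and dual-specificity phosphatase genes, and epithelium with an active receptor can change the cells around it through secreted factors. Sorted Cd11b cells can also include monocytes, neutrophils and some dendritic cells, since all of these carry the same integrin.

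Values are MAS5 signals, an array's brightness per probe set after scaling, and differences are given as log2(signal + 30.8), transgenic minus control, averaged over the times; the offset makes the change of a dim gene look smaller. Array medians ran from 96.4 to 127. Of the markers of the labelled cell type, 13 of 14 listed macrophage identity genes were measured. Csf1r, which binds the growth factor that macrophages depend on, was at 68311 to 93065 over the 8 pools. Adgre1, the F4/80 antigen, was at 9842 to 14627. The count measured does not set macrophages apart, since 13 of 14 listed fibroblast genes and 17 of 21 luminal epithelium genes were measured too. Itgam, the gene for Cd11b itself, was dim on its probe set, with 46.8 in control 4 weeks pool 2 and 545 in control 4 weeks pool 1 as the extremes. Fgfr1 gave 1132 and 1131 in the control pools against 1234 and 1150.2 in the transgenic pools at 48 hours, and 1853 and 581 against 1318.5 and 1235 at 4 weeks, a log2 difference of 0.18 ± 0.29 (SE). A dimmer Fgfr1 probe set past the filter read 262 and 315 against 452 and 399 at 48 hours, controls first. At 4 weeks its pools overlapped, and its difference over both times was 0.26. Another, at 0.37, overlapped at both times. Whether any of these probe sets reads the transgene is not given in the sources used here. In bulk samples, fewer cells of a type and less RNA per cell cannot be told apart. The 3' to 5' ratio of beta-actin, which grows as RNA is degraded, was 37.0-fold in control 4 weeks pool 2 and 6.84 to 13.9-fold in the other 7; its log2 was 3.06 ± 0.32 (SD, n = 4) in transgenic and 3.88 ± 0.95 in control pools (exact permutation test, two-sided, p = 0.143, where the smallest possible p is 0.0286).

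The size of the shared set was close to what separation at each time alone would give. At 48 hours 2476 genes had both transgenic pools above both controls, and 15.2% of them did so at 4 weeks, against 14.6% of all genes. Among the 2103 genes with both transgenic pools lower at 48 hours, 17.1% were lower again at 4 weeks, against 17.2% of all genes. Genes on the same side with a higher transgenic signal were 2.87% of those measured, genes with a lower one 2.75%, and genes on opposite sides 5.48%. Across genes the difference at 48 hours had a Pearson correlation of -0.0049 and a Spearman correlation of 0.0047 with that at 4 weeks, a description over genes that share arrays.

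**Figure D1:**
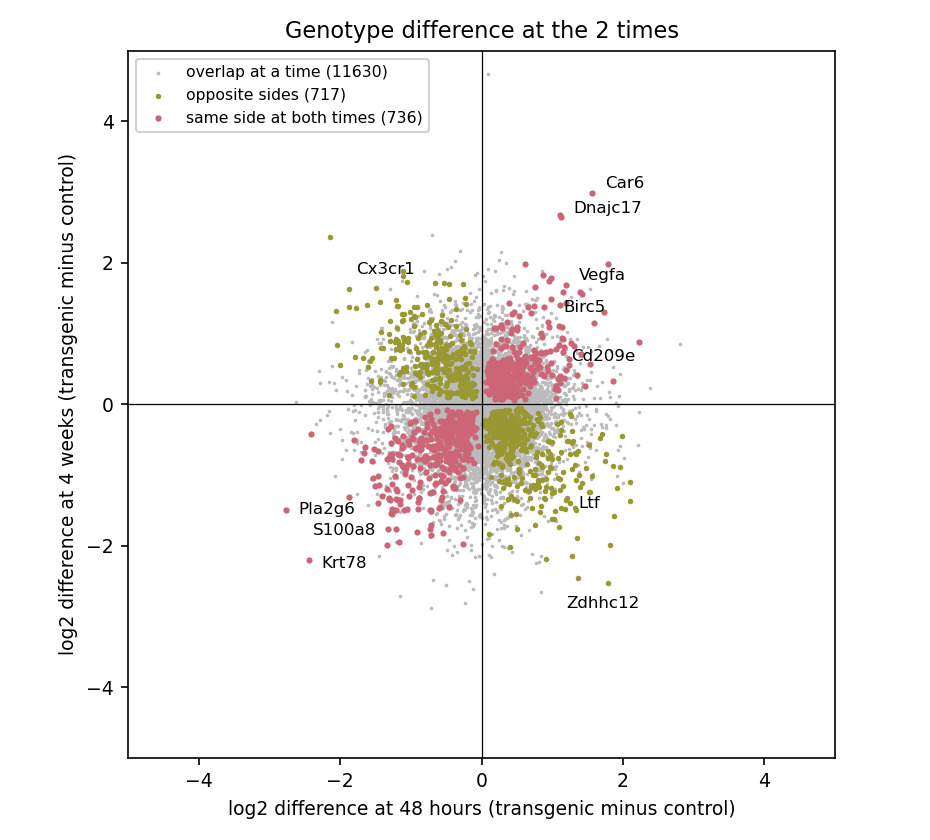
Genotype difference at 48 hours (x axis) and at 4 weeks (y axis), each in log2(signal + 30.8), for 13083 genes; red points are the 736 genes on the same side at both times and olive points the 717 on opposite sides. The cloud is round, with no lean towards the diagonal, and Krt78, Pla2g6, Car6 and Dnajc17 lie far from the centre.

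By the additive limma fit, 277 genes (2.12%) were higher and 325 (2.48%) lower at an unadjusted p under 0.05, and 348 of these 602 were also on the same side at both times. The called share was 0% over both times and 0% for the difference between the times, where the lowest adjusted p-values were 0.37 and 0.19 and 616 genes had an unadjusted p under 0.05 for the difference. In a stricter reading, all 4 transgenic pools lay above all 4 control pools for 192 genes (1.47%) and below for 193 (1.48%). Just inside the rule stood Vasn, with 775.5 in the higher control pool and 775.7 in the lower transgenic pool at 48 hours, and just outside it Nipsnap3b, with 2833 in a control pool and 2832 in a transgenic pool.

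Because the labels of MMTV-iFGFR1 4 weeks pool 2 disagree, the values were also taken without it. No gene was called then either (lowest adjusted p 0.28), and 1526 genes were on the same side, 845 higher and 681 lower, against 1161 on opposite sides, a count that 1 pool fewer raises by itself. The log2 differences without that pool were -1.32 for S100a8, -1.27 for S100a9, -2.57 for Krt78, 1.52 for Vegfa, 1.23 for Birc5, 0.98 for Cd209e, 0.46 for Spry1 and -0.37 for Npc2. The medians of the neutrophil and cell division lists were -0.36 and 0.31. Both medians kept the direction they had with all 8 pools. The genes listed could not turn, since they were picked for lying on the same side at each time. For them only the sizes can be read.

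S100a8 and S100a9, the 2 subunits of calprotectin, a calcium-binding protein that neutrophils and inflammatory monocytes make in large amounts, were lower in the transgenic pools at both times. S100a8 signal was 6377 and 7909 in the control pools against 2779 and 3336 in the transgenic pools at 48 hours, and 3172 and 11267 against 2125 and 1431 at 4 weeks. S100a9 signal was 2506.5 and 3041 in the control pools against 1075 and 1162 in the transgenic pools at 48 hours, and 1015 and 3328 against 757 and 499 at 4 weeks. Both transgenic pools lay below both controls at each time for both genes, but control 4 weeks pool 1 was near the transgenic pools of 48 hours and control 4 weeks pool 2 held the highest value, so the 4 and 4 pools overlapped when the times were put together. The log2 differences were -1.49 ± 0.33 (SE) for S100a8 and -1.41 ± 0.31 for S100a9, with adjusted p of 0.96 for each. Leaving out control 4 weeks pool 2, the pool with the high beta-actin ratio, gave -1.07 and -1.05, and with the beta-actin ratio as a covariate the values were -0.84 and -0.85.

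The genes are neighbours on chromosome 3 with opposite strands, and their promoters are shown because both members move together here. The 250 bases before each RefSeq start (build GRCm38.p6) are chr3:90668821-90669070 on the plus strand for S100a8 and chr3:90695722-90695971 on the minus strand for S100a9, 5′ to 3′. Capitals mark the TATA box, spelled TATAAA, the GC box, spelled GGGCGG, and the CCAAT box, searched on both strands.
S100a8: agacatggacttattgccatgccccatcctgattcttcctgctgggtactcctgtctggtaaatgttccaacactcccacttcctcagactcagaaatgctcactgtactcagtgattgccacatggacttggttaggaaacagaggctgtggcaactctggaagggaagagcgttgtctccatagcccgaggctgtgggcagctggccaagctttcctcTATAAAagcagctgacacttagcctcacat
S100a9: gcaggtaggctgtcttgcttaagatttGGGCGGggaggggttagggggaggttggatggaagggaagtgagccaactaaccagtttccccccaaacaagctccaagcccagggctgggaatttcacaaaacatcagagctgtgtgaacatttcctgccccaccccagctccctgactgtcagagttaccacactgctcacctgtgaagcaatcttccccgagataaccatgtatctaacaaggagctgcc
The S100a8 window held 1 TATA box match, 30 bases before the start. The S100a9 window held 1 GC box match, 223 bases before the start. The windows shared no match, and no matches overlapped. Among 32851 RefSeq promoter windows of this length, 12.4% held the TATA box, 32.7% the GC box and 33.8% the CCAAT box.

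Over both times the neutrophil list, with S100a8 and S100a9 counted in, had mostly negative differences. Its 13 measured members included 3 that were positive at 48 hours and 0 that were positive at 4 weeks. Ltf, a listed member, was on opposite sides, higher in the transgenic pools at 48 hours and lower at 4 weeks. Of 16 listed genes 13 were measured, 12 had a negative difference over both times, against 6434 of all 13083 genes, and 2, S100a8 and S100a9, were on the same side, 15.4% against 2.75% of all genes; 0 passed the adjusted test. Ngp, a neutrophil granule protein, read 639 and 1051 against 429.5 and 268 at 48 hours, and 170.0 and 1254.5 against 300.0 and 153 at 4 weeks, controls first. Csf3r, the receptor for the neutrophil growth factor G-CSF, read 454 and 455 against 368 and 199 at 48 hours, and 245 and 654.5 against 208 and 282 at 4 weeks. Both were separated at 48 hours and overlapped at 4 weeks. The list's median was -0.44 against 0.0048 over all genes, with -0.09 at 48 hours and -0.56 at 4 weeks, and the summed signal of its genes was 13620 to 25710 in control and 10090 to 12220 in transgenic pools. S100a8 and S100a9, picked for lying lower at each time, are part of these values and made up much of the sum. S100a8 alone gave 11267 of 25707 in control 4 weeks pool 2 and 1431 of 10089 in transgenic 4 weeks pool 2. The gap in the sum is therefore not separate from these 2 genes. Lcn2, a granule and epithelial protein, was the 1 member with a positive difference, 0.67. Without control 4 weeks pool 2 the median was -0.22. Hp, haptoglobin, an acute-phase protein that monocytes and neutrophils store, was lower on the same side as well. It read 856 and 503 against 401 and 444 at 48 hours, and 418 and 983 against 309 and 145 at 4 weeks. Hp was 1 of 12 measured monocyte genes, 8.33% against 2.75% of all genes, and the other 11 were on no shared side.

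Krt78, a type II keratin of stratified epithelia, had the lowest p of all genes. Its signal was 322 and 221 in the control pools against 18.7 and 29.7 in the transgenic pools at 48 hours, and 316 and 415 against 27.8 and 93.9 at 4 weeks. All 4 control pools were at 221 or more and all 4 transgenic pools at 93.9 or less, below every array median. The log2 difference was -2.32 ± 0.35 (SE) with an adjusted p of 0.37. No second probe set named Krt78 alone.

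Ptprj, a receptor tyrosine phosphatase of leukocytes and endothelium that is also called CD148, was lower in every transgenic pool. Its signal was 2116 and 1589 in the control pools against 993 and 1199 in the transgenic pools at 48 hours, and 2163 and 2189 against 1116 and 1272 at 4 weeks, a log2 difference of -0.79 ± 0.17. Kalrn, which encodes kalirin, read 2064.5 and 2151 in the control pools against 1228 and 1336 in the transgenic pools at 48 hours, and 2370.4 and 1337.5 against 781 and 696 at 4 weeks. Control 4 weeks pool 2 was the control nearest to the transgenic pools, 1337.5 against 1336 in transgenic 48 hours pool 2. Foxo1, the transcription factor held out of the nucleus by PI3K and Akt signalling, read 1426 and 2434 in the control pools against 1368.5 and 1150.2 in the transgenic pools at 48 hours, and 1784 and 2291 against 1099.7 and 887 at 4 weeks, a log2 difference of -0.79 ± 0.21. Usp36, a nucleolar deubiquitinase, read 809.7 and 1057 against 485 and 677.5 at 48 hours, and 883 and 1084 against 606.5 and 371 at 4 weeks, controls first. On these probe sets the controls were higher throughout for all 4 genes, with adjusted p of 0.96 for each. Other probe sets past the filter did not repeat this: 1 of Kalrn was at 0.66, with both transgenic pools higher at 4 weeks, 1 of Ptprj at 0.35 and another at -0.50, and those of Usp36 were at 0.18 and -0.17. Foxo1 had 2 more, at -0.19 and -0.18, with overlap at 1 time or both.

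**Figure D2:**
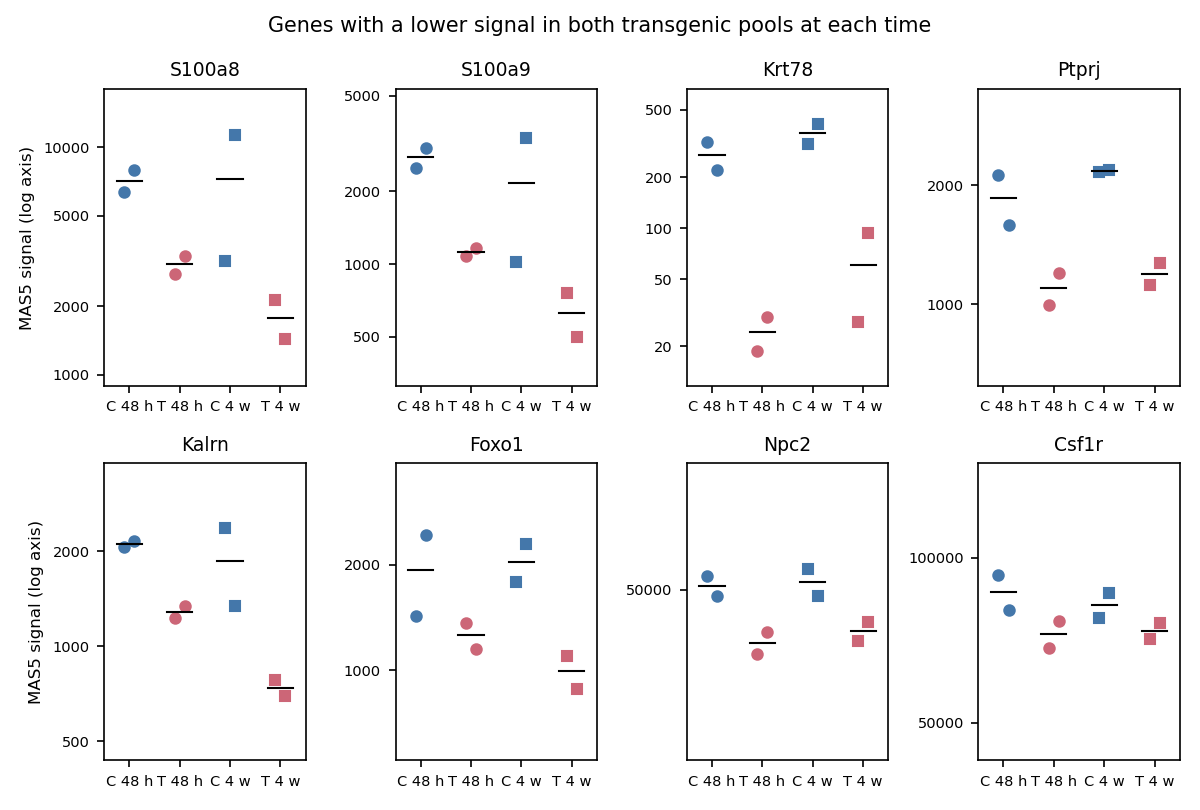
MAS5 signal (log axis, a separate range in each panel) of 8 genes with the lower signal in the transgenic pools; C is control (blue) and T transgenic (red), circles are 48 hours, squares 4 weeks, and the bar is the mean of 2 pools. S100a8 and S100a9 show control 4 weeks pools far apart, Krt78 shows a wide gap, and Csf1r and Npc2 show small gaps at high signal.

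Pla2g6, a calcium-independent phospholipase A2, had a large but uneven difference. It read 3682 and 2543 in the control pools against 174 and 974 in the transgenic pools at 48 hours, and 483 and 2679.7 against 342 and 442 at 4 weeks. Control 4 weeks pool 1 was at 483.2, below transgenic 48 hours pool 2 at 974, so the times together overlapped, and the log2 difference was -2.13 ± 0.56 (SE). A second probe set past the signal filter gave 0.10, with overlap at 48 hours and both transgenic pools higher at 4 weeks. Fa2h, a hydroxylase of fatty acids, read 183.5 and 168 against 31.6 and 82.6 at 48 hours, and 233 and 272 against 108 and 57 at 4 weeks, controls first. Kiss1r, the kisspeptin receptor, read 145 and 129 against 77.6 and 10.7 at 48 hours, and 255 and 545 against 103 and 77 at 4 weeks. Hdgfl1, a gene of the hepatoma-derived growth factor family, read 278 and 385 against 91.9 and 47.1 at 48 hours, and 253 and 199 against 35 and 129.7 at 4 weeks. These genes were dim. The unnamed locus 4930483J18Rik read 236 and 169.7 against 75.4 and 62.6 at 48 hours, and 137 and 133 against 23.3 and 32.4 at 4 weeks. For each of these 4, at least 3 transgenic pools lay under the median of their array.

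Vegfa, the main growth factor for blood vessels and a product of macrophages in growing tissue, had a higher signal in every transgenic pool. It read 503.5 and 148 in the control pools against 618 and 742 in the transgenic pools at 48 hours, and 343 and 131 against 957 and 612.5 at 4 weeks. Pool 2 of each control group was low and pool 1 nearer to the transgenic pools, yet the lowest transgenic pool, at 612.5, stood above the highest control pool, at 503.5. The log2 difference was 1.45 ± 0.37 (SE), with an adjusted p of 0.96, and it was 1.15 without control 4 weeks pool 2 and 1.00 with the beta-actin ratio as a covariate. A second, dimmer probe set of Vegfa also had both transgenic pools above both controls at each time, 19 and 24.4 against 33.5 and 182 at 48 hours, and 32.2 and 11.6 against 86.5 and 112 at 4 weeks, a log2 difference of 1.24. The growth and angiogenic factor list held 12 positive of 16 measured genes and a median of 0.36, from 0.19 to 0.59 over the alternatives. Vegfa was its 1 member on the same side and higher, 6.25% against 2.87% of all genes. Grn, progranulin, was its 1 member lower, 6.25% against 2.75%.

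Birc5, survivin, which holds chromosomes in place during mitosis and blocks cell death, was higher in every transgenic pool. Its signal was 256 and 348 in the control pools against 774 and 498 in the transgenic pools at 48 hours, and 144 and 182 against 552.5 and 469.7 at 4 weeks. The pools did not overlap at either time or over both, and the log2 difference was 1.23 ± 0.24 (SE; adjusted p 0.71). Mcm3, a subunit of the replicative helicase, read 549.5 and 717 against 1001 and 823 at 48 hours, and 517 and 616 against 813 and 666 at 4 weeks, controls first, and was on the same side too. These were 2 of 18 measured genes of the cell division list on that side, 11.1% against 2.87% of all genes. Other Mcm3 probe sets past the filter had differences of 0.32 to 0.61, and none was on the same side at both times. Of the 18, 14 had a positive difference, against 6649 of all 13083 genes, 15 did at each time alone, and 0 passed the adjusted test. Ccne1, cyclin E1, which drives entry into S phase, read 228 and 1005 against 1975 and 1672 at 48 hours, and 527 and 1423 against 1891 and 1158 at 4 weeks, with overlap at 4 weeks. Mki67, the Ki-67 antigen, read 4252 and 10228 against 6714 and 6285.5 at 48 hours, and 4344 and 4047 against 6570.4 and 7279.9 at 4 weeks, with overlap at 48 hours. The list's median was 0.33 against 0.0048 over all genes, at 0.50 and 0.33 for the 2 times, and the summed signals overlapped, 22170 to 36785 in control and 29773 to 41285 in transgenic pools. At 48 hours the sums were 22170 and 36785 against 41285 and 31243, controls first. Control pool 2 thus lay above transgenic pool 2, and the lean at 48 hours rested largely on the low control pool 1. At 4 weeks the sums were 28546 and 22765 against 36711 and 29773, without overlap. With the beta-actin ratio as a covariate the median was 0.17, and 0.20 without control 4 weeks pool 2.

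Cd209e, a mouse C-type lectin related to DC-SIGN, was higher by a similar amount at each time. Its signal was 619 and 698.5 in the control pools against 1619.5 and 1268 in the transgenic pools at 48 hours, and 981 and 1068 against 1814 and 1914 at 4 weeks. At both times the 2 genotypes were far apart relative to the spread of their pools, while the transgenic pools of 48 hours and the controls of 4 weeks lay near each other; the log2 difference was 0.97 ± 0.17 (SE; adjusted p 0.68), the lowest p among genes with a higher transgenic signal. Dnajc17, a DnaJ-type protein of the nucleus, read 1670.3 and 1033 in the control pools against 4029.7 and 2062 in the transgenic pools at 48 hours, and 448 and 262 against 2232 and 2410.2 at 4 weeks, with log2 differences of 1.12 and 2.65 at the 2 times. Topors, a nuclear ubiquitin and SUMO ligase, read 1751 and 1448 in the control pools against 2598 and 3184 in the transgenic pools at 48 hours, and 1397 and 2099.6 against 3577 and 3405.5 at 4 weeks. Other probe sets of Topors did not share the size, at 0.13 for the 1 past the filter.

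Srsf1, a splicing factor of the SR protein family, had the same difference at both times, 0.62 at 48 hours and 0.62 at 4 weeks. Its signal was 5788 and 7866 in the control pools against 10863 and 9908 in the transgenic pools at 48 hours, and 8452 and 5416 against 10209 and 10603 at 4 weeks. Its 6 other probe sets all had a positive difference, from 0.07 to 0.74, and 2 of them were on the same side at both times. Mme, the surface peptidase neprilysin or CD10, read 85.2 and 112 against 332 and 200.5 at 48 hours, and 191 and 141 against 284 and 339 at 4 weeks, controls first. Ibtk, an inhibitor of Bruton's tyrosine kinase, read 95 and 165 against 326 and 350.2 at 48 hours, and 231 and 232 against 376 and 377 at 4 weeks. All 4 transgenic pools were above the controls for both. Tmco6 read 229.6 and 162 against 400.3 and 377 at 48 hours, and 238 and 278 against 394 and 515 at 4 weeks. Itpa, which clears deaminated purine nucleotides, read 134 and 198 against 367 and 239 at 48 hours, and 46.7 and 51.8 against 219 and 226 at 4 weeks. The genotypes did not overlap in Tmco6, Itpa or Srsf1 either.

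Car6, a secreted carbonic anhydrase of glands, and Rundc3a were dim in the controls. Rundc3a read 62.7 and 68 against 213 and 229 at 48 hours, and 47 and 65.1 against 140.2 and 365 at 4 weeks, controls first. Car6 read 105 and 76.4 against 699 and 143 at 48 hours, and 83.3 and 10.8 against 983 and 266 at 4 weeks. Car6 was uneven among the transgenic pools, from 143 to 983, and below every array median in 3 of the 4 controls. Most of their control signals lay under the array medians, so they passed the signal filter through the transgenic pools. The log2 differences were 1.49 ± 0.34 and 2.28 ± 0.56 (SE).

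**Figure D3:**
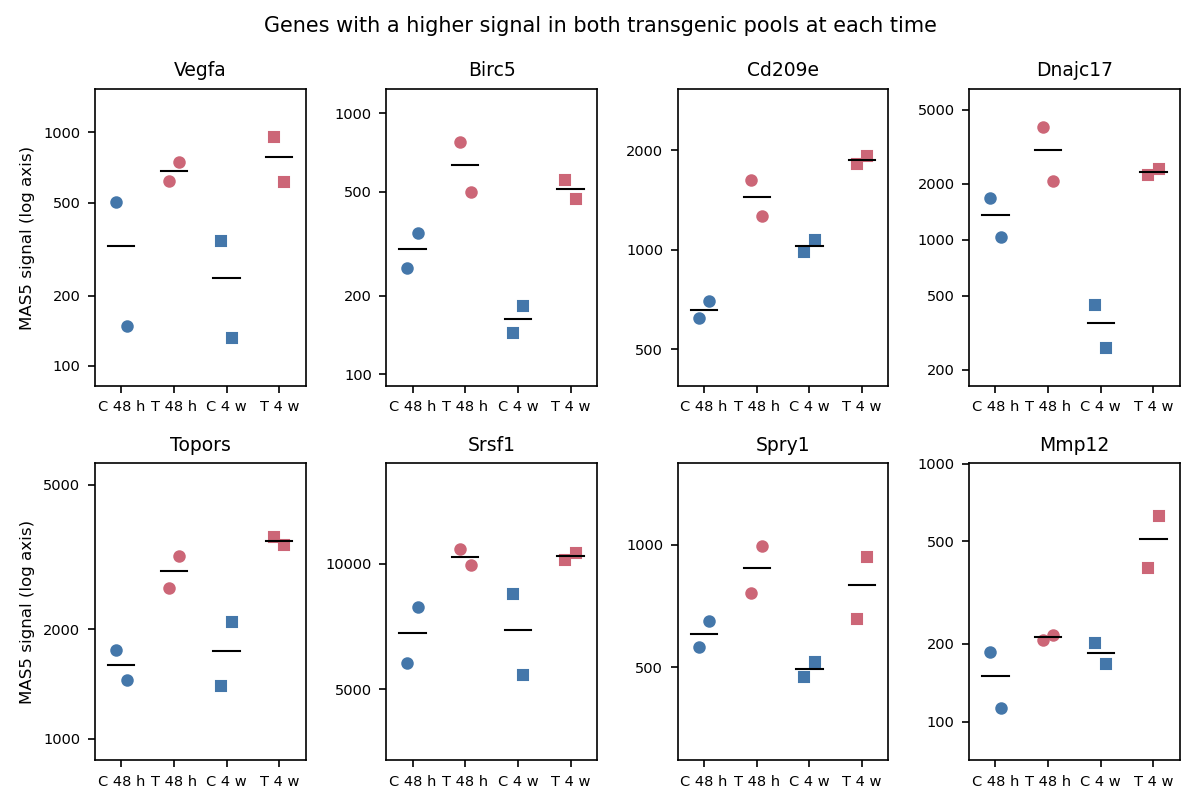
MAS5 signal (log axis, a separate range in each panel) of 8 genes with the higher signal in the transgenic pools; C is control (blue) and T transgenic (red), circles are 48 hours, squares 4 weeks, and the bar is the mean of 2 pools. Cd209e, Birc5 and Topors show pools close together, Vegfa shows 1 low control pool at each time, and Mmp12 shows its larger gap at 4 weeks.

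Some genes that macrophages are known to secrete or to use in remodelling were higher on the same side at both times. Mmp12, the macrophage elastase, read 186 and 113 against 208 and 217 at 48 hours, and 202 and 167 against 394 and 628 at 4 weeks, controls first, with log2 differences of 0.46 at 48 hours and 1.30 at 4 weeks. Timp3, an inhibitor of metalloproteinases, read 347 and 432 against 494 and 959 at 48 hours, and 392 and 555 against 763 and 597.5 at 4 weeks; another of its probe sets was lower in the transgenic pools at both times, with a difference of -0.75, so the direction depended on the probe set. Ccl17, a chemokine for T cells made by alternatively activated macrophages and dendritic cells, read 337 and 250.2 against 471 and 452 at 48 hours, and 66.7 and 497 against 714 and 1051.5 at 4 weeks, with control 4 weeks pool 1 far below every other pool. Fosb, an immediate early transcription factor, read 3056 and 2297.5 against 3234 and 3064 at 48 hours, and 2674 and 3424 against 4156 and 4953 at 4 weeks. Of 20 measured matrix remodelling genes, Mmp12 and Timp3 were the 2 on the same side, 10% against 2.87% of all genes, and 12 were positive.

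Spry1, a Sprouty gene and feedback target of FGF signalling, was higher at both times. Its signal was 559.5 and 649 in the control pools against 763 and 992 in the transgenic pools at 48 hours, and 472.5 and 516 against 657 and 931.5 at 4 weeks. All transgenic pools lay above all controls, with 657 as the lowest transgenic and 649 as the highest control value, and the log2 difference was 0.57 ± 0.20 (SE; adjusted p 0.96). Of 13 measured FGF signalling genes 10 were positive, Spry1 alone (7.69% against 2.87% of all genes) was on the same side, and the median was 0.18, from 0.12 to 0.25 over the alternatives. Dusp6, the ERK phosphatase induced by the same pathway, read 619 and 1113 against 1642 and 1226 at 48 hours, and 1791 and 1098 against 1433 and 2576.5 at 4 weeks, controls first, and overlapped at 4 weeks. Markers of luminal epithelium had a median of 1.26 at 48 hours and -0.19 at 4 weeks. Of 17 measured, 0 were on the same side, against 2.87% higher and 2.75% lower of all genes. On opposite sides were 4, against 5.48% of all genes. Summed signals were 5576 to 17270 in control and 8540 to 15810 in transgenic pools. The part of these epithelial genes in the values of Spry1 and Vegfa was not tested. The fibroblast list was positive for 12 of 13 genes, against 6649 of all 13083, with a median of 0.32. Control 48 hours pool 1 had the lowest summed signal, 46526 against 68891 to 109240 in the other 7 pools, and without it the median was 0.11. Lum, the matrix proteoglycan lumican, read 1383 and 3992 against 4049 and 3374 at 48 hours, and 3703 and 1668 against 4551.5 and 4828 at 4 weeks, controls first, with overlap at 48 hours. None of the 13 was on the same side, against 2.87% higher and 2.75% lower of all genes.

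Some very bright genes were lower on the same side by small amounts, although the macrophage identity list as a whole was even, with 6 positive and 7 negative genes and a median of -0.0075, and decile 10 of signal held 44 genes higher and 34 lower on the same side. Npc2, which carries cholesterol out of lysosomes, read 53119 and 48560.3 in the control pools against 37544 and 41400.5 in the transgenic pools at 48 hours, and 54750.3 and 48648 against 39858 and 43341 at 4 weeks, a log2 difference of -0.34 ± 0.11 (SE). Its 3 other probe sets past the filter had differences of -1.03 to -0.27, and none of them was separated at both times. Csf1r read 93065 and 80298 against 68311 and 76618 at 48 hours, and 77590.1 and 86294 against 71036 and 75893 at 4 weeks, controls first, with a difference of -0.21; 1 other probe set repeated this on the same side at -0.21 and another gave 0.26 with overlap at both times. After quantile normalization the Csf1r difference was 0.0059, so its direction rests on the scaling.

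Grn read 62612 and 60279.6 against 48882 and 51615 at 48 hours, and 58973 and 58267 against 51837 and 52333 at 4 weeks, controls first. Pf4, a chemokine of platelets and resident macrophages, read 53098 and 53749 against 46524 and 49087 at 48 hours, and 58355 and 52522 against 46153 and 48237.5 at 4 weeks. Nfkbia, the inhibitor of NF-kB, read 87357 and 69057 against 60468 and 65277 at 48 hours, and 64056 and 75515 against 58778 and 60728 at 4 weeks. Both genotypes of Nfkbia overlapped when the times were put together. Other Nfkbia probe sets past the filter had differences of -0.30 to 0.04, and none was on the same side at both times. Hexa, a lysosomal hexosaminidase subunit, read 26917 and 26925 against 24065 and 24757 at 48 hours, and 29460.0 and 29426 against 25173 and 25221 at 4 weeks. Lamp2, a lysosomal membrane protein, read 36211 and 39685.5 against 33047 and 34002 at 48 hours, and 38437 and 36822 against 32049 and 34529.6 at 4 weeks. The gaps between these pools were narrow, with log2 differences of -0.26 to -0.18. After quantile normalization these were -0.06 for Nfkbia, -0.07 for Grn, -0.07 for Pf4, -0.12 for Lamp2 and -0.15 for Hexa. The signal exceeded by 0.1% of features was 49362 to 55841 in transgenic and 55840 to 64326 in control arrays. All 3 other Lamp2 probe sets past the filter had small positive differences, 0.06 to 0.09, with overlap. Npc2, Hexa and Lamp2 were the 3 of 20 measured lysosome and phagocytosis genes on the same side and lower, 15% against 2.75% of all genes. Of the 20, 13 were negative, and the median was -0.09, from -0.15 to -0.01 over the alternatives. Among 12 measured ribosomal protein genes, Rps14 was lower (-0.18, and -0.02 after quantile normalization) and Rps24 higher (0.30), both with all 4 pools of each genotype apart. That is 8.33% on each side, against 2.75% lower and 2.87% higher of all genes. Other Rps24 probe sets past the filter had differences of 0.03 to 0.60, and only the dim set at 0.60 was on the same side at both times.

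The direction of the shared set changed with brightness. Genes were put in deciles by mean log2 signal. In decile 1, the dimmest, 20 were higher and 47 lower on the same side, and in decile 8 66 were higher and 30 lower. After quantile normalization decile 1 held 28 and 38 and decile 8 57 and 34. The whole set then held 424 higher and 293 lower genes. Of the 736 genes, 598 stayed on the same side under that scaling, 334 higher and 264 lower, and 0 turned over.

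**Figure D4:**
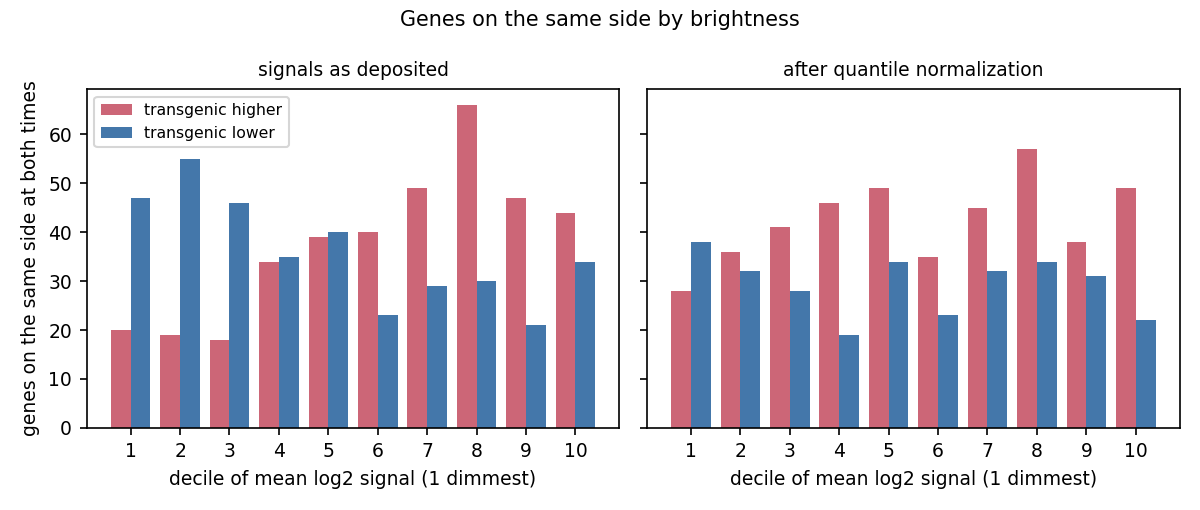
Number of genes on the same side at both times (y axis) in each decile of mean log2 signal (x axis, 1 the dimmest), for signals as deposited (left) and after quantile normalization (right); red bars are genes higher and blue bars genes lower in the transgenic pools. The lower genes gather in deciles 1 to 3 of the deposited signals, with 47, 55 and 46, and less so after quantile normalization, with 38, 32 and 28.

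Other probe sets of a gene are a measure that did not choose it, although they read the same RNA. Of the 24 genes of lowest p named above, 15 had 35 further probe sets, of which 23 had the same direction and 3, those of Vegfa and Srsf1, were on the same side. Of the 16 that passed the signal filter, 12 had the same direction. Over all 736 genes, 563 further probe sets had the same direction in 63.8% of cases and the same side in 8.53%, against 57.0% and 3.70% over all genes measured.

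The interferon response list was negative for all 15 measured genes over both times, against 6434 of all 13083 genes, and 0 passed the adjusted test. Yet 0 were on the same side, against 2.87% higher and 2.75% lower of all genes. On opposite sides were 2, against 5.48% of all genes. At 48 hours 10 of the 15 were positive. The median was -0.71 over both times, 0.09 at 48 hours and -1.19 at 4 weeks. Control 4 weeks pool 1 stood apart, with a summed signal of 101200 against 24605 to 47936 in the other 7 pools, and without it the median over both times was -0.27. Ifit1, an interferon-induced protein that binds foreign RNA, had log2 differences of 0.27 at 48 hours and -1.75 at 4 weeks, like most of the list. Rsad2, viperin, 1 of the 5 members negative at 48 hours, read 8776 and 12445 against 6026 and 9388.5 at 48 hours, and 18431 and 13801 against 6359 and 5582 at 4 weeks, controls first, with the controls of 4 weeks apart from the transgenic pools and the pools of 48 hours overlapping. Oasl1, an interferon-induced regulator of Irf7 translation, read 2757 and 2223 against 1508 and 2475 at 48 hours, and 4406 and 3206 against 1349 and 2073 at 4 weeks, with the same arrangement.

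**Figure D5:**
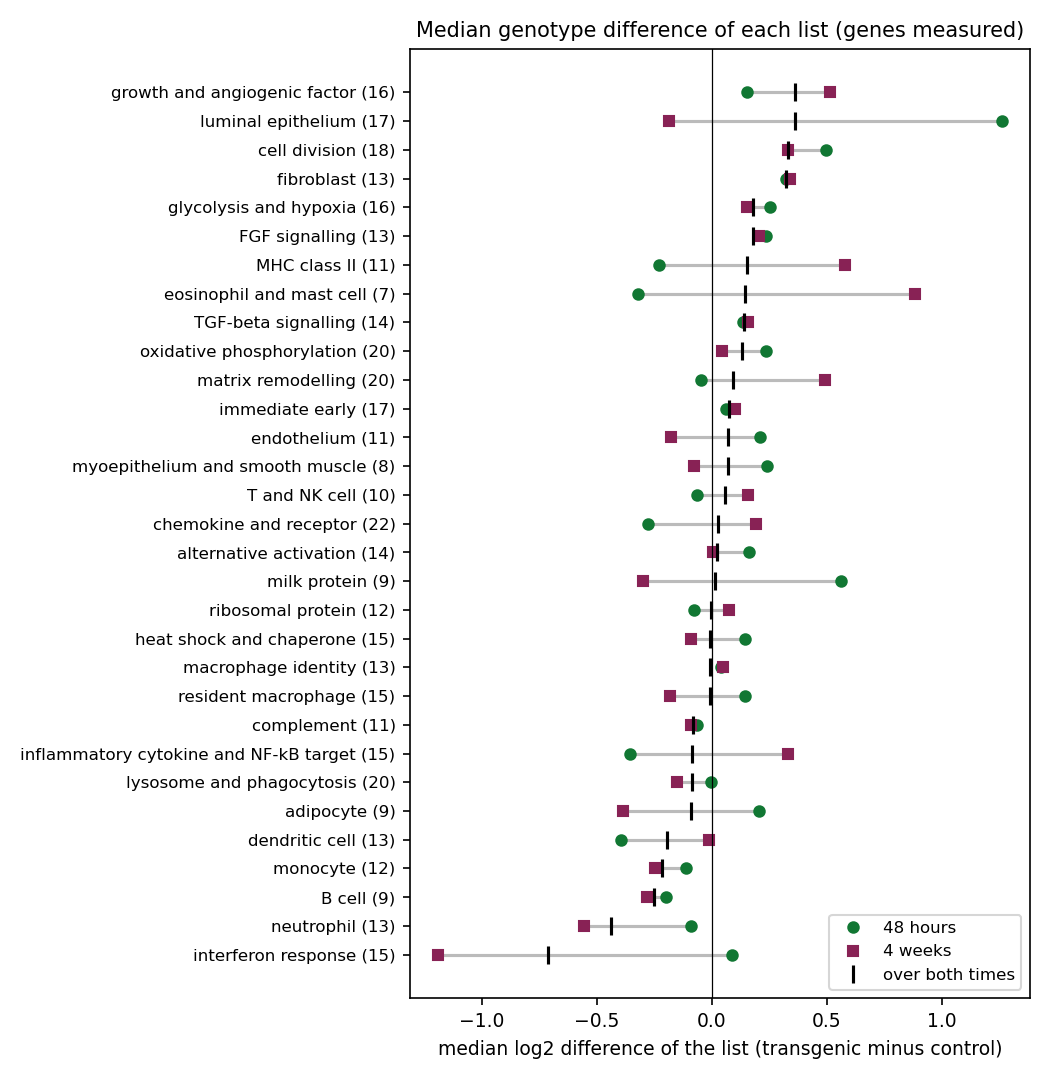
Median log2 difference (x axis, transgenic minus control) of the measured genes of 31 lists (rows, number measured in brackets) at 48 hours (circles), at 4 weeks (squares) and over both times (bars). The medians positive at both times included those of the fibroblast, FGF signalling and cell division lists. Those negative at both included the neutrophil, monocyte and B cell medians. The luminal epithelium median was 1.26 and -0.19 and the interferon median 0.09 and -1.19.

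Genes on opposite sides show how far a difference at 1 time may go without the other. Cx3cr1, the fractalkine receptor of monocytes and tissue macrophages, read 3088 and 2400.1 in the control pools against 1692 and 1732 in the transgenic pools at 48 hours, and 488.5 and 591 against 1409 and 2408 at 4 weeks. The transgenic pools were lower at 48 hours and higher at 4 weeks, and the controls read lower at 4 weeks than at 48 hours. A dimmer Cx3cr1 probe set, below the filter, had both transgenic pools higher at both times instead, with 12.4 and 6.7 against 58.3 and 56.4 at 48 hours, and 7 and 4.5 against 78.9 and 48.6 at 4 weeks, controls first. The difference between the times was 2.38 ± 0.42 log2 units (SE; adjusted p 0.37). F5, coagulation factor V, had the same pattern with 5244 and 7843 against 3608 and 3913 at 48 hours, and 1046 and 1427 against 3177 and 3411 at 4 weeks. Med18, a Mediator subunit, read 884 and 1463 against 558 and 465 at 48 hours, and 279.7 and 404 against 1119 and 1421 at 4 weeks.

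Ltf, lactoferrin, found in neutrophil granules and milk, was turned the other way, with 277 and 331 in the control pools against 619.8 and 866 in the transgenic pools at 48 hours, and 1048 and 1017 against 367 and 408 at 4 weeks. Tpst1, a tyrosylprotein sulfotransferase, read 506 and 504 against 1168 and 1075 at 48 hours, and 1462.5 and 1059 against 620.2 and 438.5 at 4 weeks. Zdhhc12, a palmitoyltransferase, read 109 and 56 against 387 and 314 at 48 hours, and 433 and 457.5 against 51.8 and 51.1 at 4 weeks. All 3 were higher in transgenic pools at 48 hours and lower at 4 weeks. The difference for Zdhhc12 was -4.32 ± 0.56 with an adjusted p of 0.19, the lowest of all genes for this test. Of the genes with a log2 difference of at least 1 at each time, 14 were higher at both, 33 lower at both and 55 on opposite sides.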

How the data were processed

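The authors deposited a signal intensity for each probe set of Affymetrix mouse arrays. MAS5 is named in the submitters' processing notes, and its version and settings are not given in the sources used here. The mean without the top and bottom 2% was 499.3 to 499.8 on each array, so no array was scaled further. Per the labels' protocols, RNA was amplified in a two-cycle protocol, which favours the 3' end. Of 45101 probe sets, 34945 had 1 gene symbol, 932 several, 9160 none and 64 were controls. Probe sets brighter than the median of their array on 2 or more arrays were retained, and the set with the highest mean log2 value stood for its gene, giving 13083 of 18193 genes. The offset of 30.8 is the 25th percentile of all values. Limma 3.58.1 (R 4.3.3; lmFit, eBayes with trend) gave the genotype term with time as covariate, from 5 residual degrees of freedom, and a mean for each group gave the differences at each time; p-values were adjusted by Benjamini-Hochberg. The model was tested on simulated data. Precision is limited by the number of arrays, and probe detection calls were not used.

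Genes named are the 12 of lowest p in each direction on the same side, up to 4 per list on the same side, 3 in each direction on opposite sides, and fixed genes; Ngp, Csf3r, Ccne1, Mki67, Dusp6, Lum, Rsad2, Oasl1, Ifit1 and Lcn2 were chosen after their values were seen, as examples of their lists, as were the genes at the edge of the rule. The members and the 31 lists were chosen with earlier results of these data known. In each of the 31 lists, the share on the same side rests on 3 genes or fewer and was not tested. Lists with 0 genes on the same side were mostly not described. Pool numbers were not treated as pairs, since the 6 correlations between same-numbered pools ran from -0.08 to 0.13. Promoter sequences are from RefSeq. Figures were drawn with matplotlib 3.10.9.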

Additional observations from a re-analysis of the deposited data

Results flagged for a closer look

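Groups of 4 pools, those of 1 genotype with both times mixed, were searched for a pool set apart from the other 3. Chance sets apart about 1 in 20 when all 4 values share a distribution, which mixed times and picked genes need not do. Of 164 groups, 5 held such a pool. The pools were control 48 hours pool 2 for Ptprj (1589), transgenic 48 hours pool 1 for Itpa (367), transgenic 4 weeks pool 2 for Tmco6 (515) and Krt78 (93.9), and transgenic 4 weeks pool 1 for Rps14 (51160). These 5 genes were picked for lying on the same side at each time. That choice fixed on which side of the other genotype each pool lay at its time.

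Of the 717 genes on opposite sides at the 2 times, the 6 with the lowest p of the difference, 3 in each direction, are given here. The difference at 4 weeks minus that at 48 hours was -4.32 for Zdhhc12, -2.54 for Ltf, -2.31 for Tpst1, 2.93 for Med18, 2.17 for F5 and 2.38 for Cx3cr1. None of these passed the adjusted limma test of the difference, with adjusted p from 0.19 to 0.37.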

How the results depend on the processing

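No setting turned the count of 0 genes called over both times into more than 1. With a pool left out in turn, called genes numbered 0 to 1 over both times, at 48 hours, at 4 weeks and for the difference between the times: Cysrt1 (-2.62) without transgenic 48 hours pool 2 and Csn3 (2.42) without control 4 weeks pool 1 over both times, Csn3 also at 48 hours (without either control 4 weeks pool) and Nrip2 at 4 weeks (without either transgenic 48 hours pool) and for the difference. The same counts ran from 1234 to 2006 genes on the same side, 607 to 1066 higher, 586 to 940 lower and 1161 to 1925 opposite, since fewer pools separate more easily. At an adjusted p under 0.2 there were 2 genes at 4 weeks, Pms2 and Dnajc17, and 1 for the difference, Zdhhc12. Without a filter 599 genes were lower on the same side. With the filter at the 75th percentile 442 were on the same side, 166 lower, and 393 opposite. With all probe sets there were 1286, 643 higher, 643 lower and 1239 opposite. With a log2 difference of at least 0.5 at each time there were 226, 83 higher, 143 lower and 254 opposite.

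Of the values of the genes named, 1 on the same side changed sign, Csf1r after quantile normalization (0.0059). Of the markers given for the check of identity, Fgfr1 was -0.35 and Itgam -0.32 with the beta-actin ratio as a covariate, and over the fits with a pool left out Fgfr1 ran from -0.17 to 0.48 and Adgre1 from -0.012 to 0.20, negative without control 4 weeks pool 2 and pool 1. With the pool number as a replicate block, 0 genes were called, with a lowest adjusted p of 0.54, a fit made for the genotype difference over both times alone. Dim signals limit what can be read from Krt78, Car6, Rundc3a and most of the genes with large differences.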

Other observations

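The chaperonin that folds actin and tubulin, made of 8 different subunits, was looked at after the values of some of its genes were seen. All 8 subunit genes were measured and had a positive difference over both times, against 6649 of all 13083 genes. Of the 8, 4 were higher on the same side, where 2.87% of all genes were. Cct6a read 3258.5 and 4946 in the control pools against 6247 and 5902.5 in the transgenic pools at 48 hours, and 4231 and 3988 against 5586 and 6542 at 4 weeks, a log2 difference of 0.57 ± 0.16 (SE). Tcp1 read 6361 and 6396 against 8547 and 6812 at 48 hours, and 6692 and 6891 against 8519 and 8398 at 4 weeks, controls first. Cct5 read 8607 and 9926 against 11977 and 10412 at 48 hours, and 10636 and 7781 against 11029 and 11808 at 4 weeks. For both, the times put together overlapped. Cct3 read 9724 and 9825 against 11086 and 11598 at 48 hours, and 8366 and 10460.2 against 11310.4 and 10959 at 4 weeks. The other 4, Cct2, Cct4, Cct7 and Cct8, had differences of 0.10, 0.16, 0.21 and 0.35, with overlap at 1 time or both. None passed the adjusted limma test, where the lowest unadjusted p was 0.00384, and a gene set picked in this way has no test.

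Among the 14 genes higher by at least 1 log2 unit at each time, several had control signals close to the floor of the array, and these too were singled out after their values were seen. Zfp583, a zinc finger gene, read 13.8 and 19 against 102 and 88.2 at 48 hours, and 29.3 and 18 against 117 and 143 at 4 weeks, controls first. Calcb, a calcitonin gene-related peptide, read 11.9 and 7.6 against 133 and 88.4 at 48 hours, and 5.6 and 34.5 against 57.6 and 387 at 4 weeks. Tprn, taperin, read 12.7 and 30.4 against 108 and 180.0 at 48 hours, and 6.6 and 31.8 against 85.6 and 91.2 at 4 weeks. The controls of all 3 lay below every array median. Scgb2b27, a secretoglobin, read 24.5 and 32.8 against 210.3 and 37.6 at 48 hours, and 3 and 9.9 against 253 and 168 at 4 weeks. Gpr176 read 29.1 and 25 against 103 and 195 at 48 hours, and 14.8 and 38.3 against 58.7 and 142 at 4 weeks. On the lower side, Sptb, erythroid beta-spectrin, read 152 and 106.5 against 16.7 and 38.3 at 48 hours, and 142.5 and 204 against 68.2 and 28.1 at 4 weeks. Kcnma1, a potassium channel, read 224 and 203 against 50.9 and 94.8 at 48 hours, and 195 and 182.5 against 16.1 and 99.8 at 4 weeks. Gadd45gip1, a mitochondrial ribosome protein, read 81.7 and 111 against 18.9 and 15 at 48 hours, and 146 and 166 against 38.8 and 51.5 at 4 weeks. These genes were picked for their separation, and most passed the signal filter through the brighter genotype, so their gaps support nothing further.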
